A study of Homo sapiens with 18 samples.

Results

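Transcripts of 9 genes of the MHC class I antigen presentation pathway were followed in U2OS, an established human osteosarcoma cell line. They were HLA-B, HLA-C, HLA-E and HLA-F (class I heavy chains), B2M (their common light chain), TAP1 and TAP2 (the peptide transporter), TAPBP (tapasin) and NLRC5 (a regulator of class I transcription). The genes were chosen by symbol and are 9 of the 25296 genes of the deposited table of estimated counts. All 9 passed the filter on low counts, which left 18226 genes for testing. The study sequenced RNA from 3 U2OS lines. The EV line carries the empty retroviral vector MigR1, the WT line overexpresses wild-type DNMT3A, a DNA methyltransferase, and the MUT line overexpresses a mutant DNMT3A. Its substitution is R882C in the series text and R882H in the sample labels, so it is called only mutant here. RNA was taken without treatment (the series text says vehicle) or 24 h into exposure to 10 µM cytarabine, a nucleoside drug that blocks DNA synthesis. The 6 groups hold 3 biological replicates each, 18 libraries in all, and whether a line is 1 clone or a pool of cells is not given in the sources used here.

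Class I molecules carry peptides from inside the cell to its surface for inspection by CD8 T cells. Proteasomes cut proteins into peptides, TAP1 and TAP2 together pump them into the endoplasmic reticulum, and tapasin holds an empty heavy chain with B2M beside the transporter until a peptide is bound. HLA-B and HLA-C are classical presenting molecules, HLA-E is a ligand of NK cell receptors and HLA-F is a less widely expressed relative. The genes are known to respond to interferons through interferon-stimulated response elements, to NF-kB, and to NLRC5, which works through the SXY module of class I promoters.

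Library totals ran from 15.4 to 21.9 M estimated counts. DNMT3A, the label check, gave 26.2 to 49.6 CPM (counts scaled to a common library size) in the EV libraries, 129 to 182 in WT and 254 to 615 in MUT. Of 9 osteoblast lineage genes listed, 7 were in the table, and 4 to 6 had a mean of at least 1 CPM, depending on the group. Of these, SPARC (805 to 1171 CPM), COL1A1 (60.8 to 294) and RUNX2 (29.6 to 53.2) were present in every library. BGLAP, a late osteoblast gene, stayed at or under 0.437 CPM. MS4A1 and CD14 stayed at or under 0.251 CPM and PTPRC at or under 1.41 CPM. The summed level of the 7 leukocyte markers in the table moved with treatment, from 59.3 to 61.8 CPM in untreated EV to between 117 and 124 CPM in treated EV, chiefly through NCAM1 (51.4 to 190 CPM over all libraries), and its part in the results below was not tested. It went from between 55.9 and 63.1 to between 98.5 and 115 CPM in WT, and from between 75.8 and 108 to between 185 and 204 CPM in MUT. Epithelial markers summed to between 468 and 984 CPM over all libraries. The 2 libraries highest in mitochondrial counts, treated EV replicate 2 (5.18% of counts) and untreated MUT replicate 2 (4.47%), stood apart from the other 16 (2.70% to 3.87%). The biological coefficient of variation was 0.216 within untreated MUT and 0.132 within treated EV, against 0.0397 to 0.0694 in the other groups. By mean correlation of log2 CPM with the other libraries of the group, these 2 libraries were not the least alike. Untreated MUT replicate 3 (r = 0.9743) lay below replicate 2 (0.9749), and treated EV replicate 1 (0.9785) lay below replicate 2 (0.9831). The fit was also made without the 2 libraries highest in mitochondrial counts, an alternative chosen after the data were seen. Each member call that this exclusion added is given below.

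Promoter windows from RefSeq (GRCh38.p14), 250 bases before to 50 after the transcription start, were matched for 7 of the 9 members, HLA-B, HLA-C, HLA-F, B2M, TAP1, TAP2 and TAPBP, and HLA-E and NLRC5 were not matched. The stretches below are the longest ones before the start with no annotated GENCODE exon of the genes analysed. They are shown 5′ to 3′ for TAP1 and HLA-F, which rose with cytarabine in every line, for TAP2, which fell in EV and MUT, and for HLA-C, which rose in WT. Capitals mark the interferon-stimulated response element core (GAAA, then 2 bases of any kind, then GAAA), the NF-kB core (GGGA, then 3 bases of any kind, then TCC), the cyclic AMP response element core of the SXY module (TGACG) and the Y box (CCAAT), each on either strand. The stretches are chr6:32853817-32853954, minus strand for TAP1, chr6:29723184-29723305, plus strand for HLA-F, chr6:32838740-32838989, minus strand for TAP2 and chr6:31272131-31272342, minus strand for HLA-C.
TAP1: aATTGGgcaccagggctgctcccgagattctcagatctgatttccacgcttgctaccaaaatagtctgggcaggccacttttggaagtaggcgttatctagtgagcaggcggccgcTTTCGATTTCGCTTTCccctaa
HLA-F: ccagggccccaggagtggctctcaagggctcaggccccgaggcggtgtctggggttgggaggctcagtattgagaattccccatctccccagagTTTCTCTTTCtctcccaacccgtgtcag
TAP2: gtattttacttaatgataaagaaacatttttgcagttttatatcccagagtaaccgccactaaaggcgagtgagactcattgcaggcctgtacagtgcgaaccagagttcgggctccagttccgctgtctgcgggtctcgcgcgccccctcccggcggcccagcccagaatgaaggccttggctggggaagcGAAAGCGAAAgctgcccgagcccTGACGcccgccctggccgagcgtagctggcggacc
HLA-C: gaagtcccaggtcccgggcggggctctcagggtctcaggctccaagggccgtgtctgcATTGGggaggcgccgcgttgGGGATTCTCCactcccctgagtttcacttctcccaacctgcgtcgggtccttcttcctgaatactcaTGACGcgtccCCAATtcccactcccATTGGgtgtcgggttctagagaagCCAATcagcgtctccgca

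Over the whole windows, the response element core lies in the promoters of HLA-F, B2M, TAP1, TAP2 and TAPBP, and in 3.57% of 35116 promoters. These 5 members include genes that rose, genes that fell and B2M, which passed the test in no line. With positions counted from the start, TAP1 has 2 overlapping copies on the opposite strand from -134 to -119, and B2M has 2 overlapping copies from -144 to -129. TAPBP has 2 overlapping copies from -20 to -5, TAP2 has 1 copy from -58 to -49 and HLA-F has 1 on the opposite strand from -156 to -147. HLA-B and HLA-C have no exact match to this core in their windows, nor has the window of another TAP1 start that RefSeq gives. The NF-kB core, found in 5.07% of promoters, occurs in TAP1, B2M and HLA-C, and the 2 matches in B2M overlap on opposite strands. HLA-B, HLA-C and HLA-F each hold a Y box on both strands between -82 and -52. HLA-B and HLA-C carry TGACG at -106 to -102 and -105 to -101. TGACG is in 24.6% of promoters and the Y box in 34.6%, and GGGCGG (Sp1) and TATAAA, which were searched too, are in 45.0% and 11.5%. The search took exact letters, so sites that differ from these patterns were not counted. A window without a match may therefore still hold such a site, for the response element and for NF-kB alike. A match of letters is a description of these windows, and binding was not tested.

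**Figure D1:**
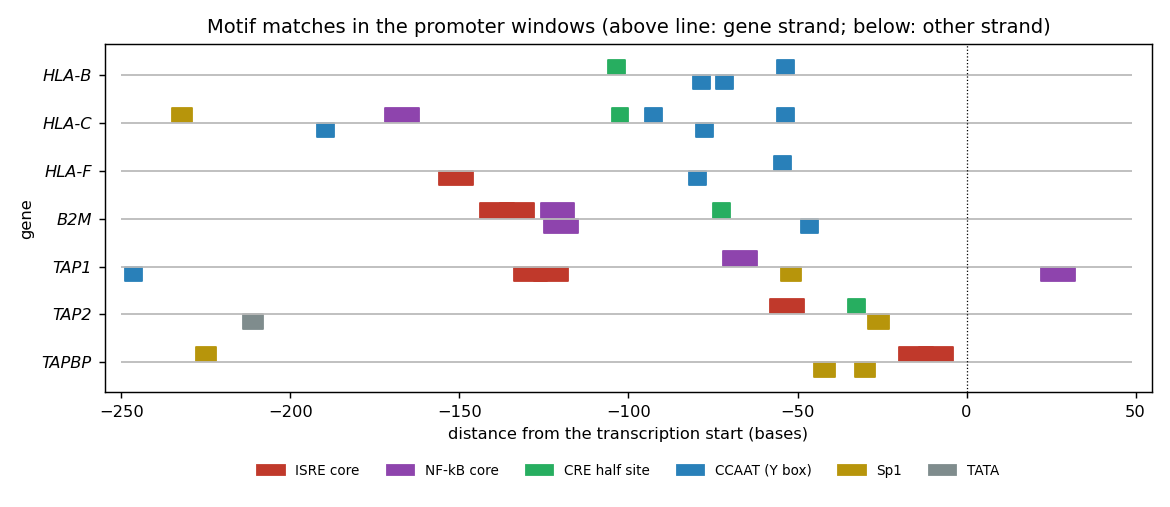
Motif matches in the promoter windows of the 7 matched members, with the distance from the transcription start in bases on the horizontal axis and 1 gene per line (TAP1 by the window of its more distant start); blocks above a line are on the gene's strand and blocks below it on the other strand. Exact matches to the response element core (red) appear in HLA-F, B2M, TAP1, TAP2 and TAPBP and not in HLA-B or HLA-C.

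The genes were expressed at very different levels, compared here as CPM per kb of annotated exonic length. In untreated EV cells B2M was highest, at 146 CPM per kb, followed by HLA-C at 97.7, HLA-B at 62.1, HLA-E at 42.5 and TAPBP at 22.7. TAP1 (13.4) and TAP2 (12.9) were next, and their replicates overlapped, so their order is not separated from the spread. HLA-F (1.47) and NLRC5 (0.866) were lowest, and every other pair of neighbours in this order did not overlap. The order of HLA-B and HLA-C rests on the lengths used. Before division by length HLA-B was higher, at 287 CPM against 245 for HLA-C, and the annotated lengths were 4623 and 2507 bases. By the longest annotated transcript HLA-C was again higher, at 130 CPM per kb against 81.0. TAP1 passed TAPBP in the treated cells of all 3 lines, reaching 22.3, 26.1 and 21.8 CPM per kb in EV, WT and MUT against 17.9, 19.9 and 18.9 for TAPBP. In untreated MUT the replicates of B2M, HLA-C, HLA-B and HLA-E overlapped between neighbours. HLA-B and HLA-C are related class I genes of similar sequence, and the table's HLA-B interval (chromosome 6, 31269491 to 31357189, minus strand) contains most of the HLA-C gene (31268749 to 31272131, minus strand), so how reads were split between the pair is uncertain.

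Cytarabine changed 5 of the 9 genes in each line at an adjusted p under 0.05 in the edgeR quasi-likelihood test. TAP1, HLA-F and NLRC5 rose in EV, WT and MUT. HLA-B and HLA-C rose in WT, TAP2 and TAPBP fell in EV and MUT, and HLA-E and B2M passed the test in no line. The counts were 3 up and 2 down in EV, 5 up in WT, and 3 up and 2 down in MUT. Of all tested genes 49.1% were called in EV (26.1% higher and 22.9% lower), 49.0% in WT (26.3% higher and 22.7% lower) and 56.3% in MUT (30.4% higher and 25.9% lower), so 5 of 9 is near the background share whichever line is taken. The 9 genes had median log2 fold changes of 0.21 (EV), 0.38 (WT) and 0.11 (MUT), and all tested genes 0.051, 0.026 and 0.054. In EV 7 members had groups that did not overlap, in WT 5 and in MUT 4, against 58.7%, 65.3% and 56.6% of all genes. Without the 2 libraries highest in mitochondrial counts the members called numbered 7 (EV), 5 (WT) and 6 (MUT), and that fit called 49.4%, 53.0% and 55.2% of its genes. In these bulk libraries fewer cells with a transcript and less of it per cell cannot be told apart.

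**Figure D2:**
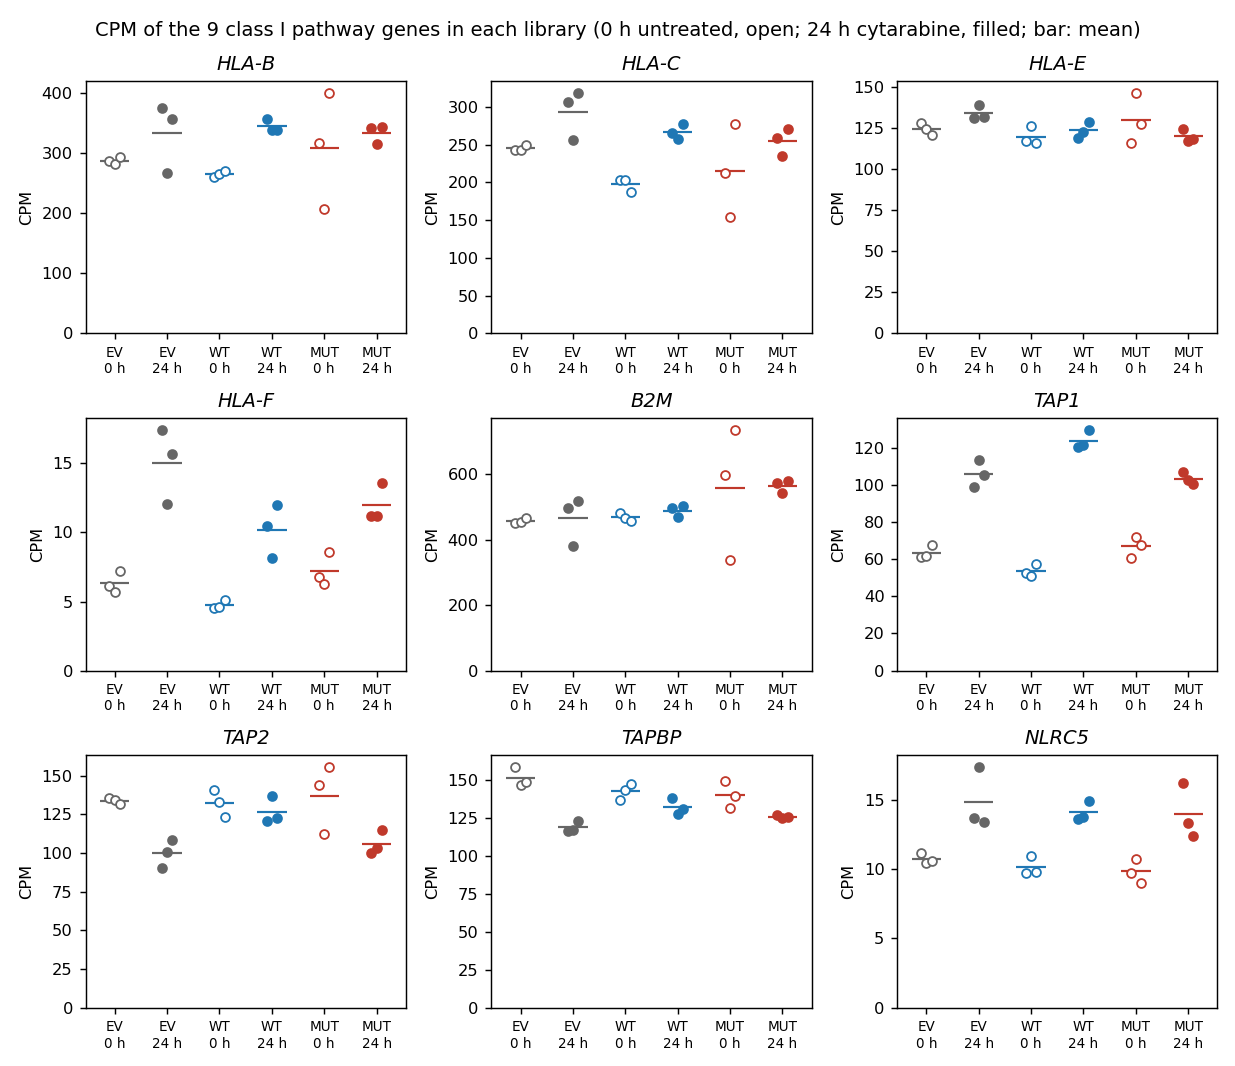
CPM of each of the 9 genes (vertical axis from 0, 1 panel per gene) in the 18 libraries, grouped on the horizontal axis by line and treatment; open points are untreated libraries, filled points are libraries after 24 h of cytarabine, and the bar is the group mean. TAP1, HLA-F and NLRC5 stand higher in every treated group, and the untreated MUT points of HLA-B, HLA-C and B2M are spread widely.

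Among the classical heavy chains, HLA-B (chromosome 6) gave 260.0, 265 and 269.7 CPM in the untreated WT libraries and 357, 339 and 339 CPM in the treated ones, which did not overlap. The rise was 0.38 on the log2 scale (SE 0.152, adjusted p = 0.0448, edgeR). This call was held in 12 of 26 alternatives, with adjusted p up to 0.113, and it was lost on leaving out any single WT, untreated EV or treated MUT library, or untreated MUT replicate 1, with log2 fold changes of 0.36 to 0.40, and with the authors' factors (0.32). In EV the untreated libraries gave 287, 282 and 293 CPM and the treated ones 375, 266 and 357 CPM. Treated EV replicate 2 lay below all 3 untreated libraries, and the log2 change came to 0.21 (SE 0.152, adjusted p = 0.268, edgeR). Without the 2 libraries high in mitochondrial counts it was 0.35 (adjusted p = 0.000738, edgeR). In MUT, HLA-B gave 317, 207 and 399.6 CPM untreated and 342, 314 and 343 CPM treated. The treated values lay inside the untreated range, and the log2 fold change of 0.11 (SE 0.152) turned to -0.15 without untreated replicate 2 and rose to 0.31 (adjusted p = 0.0481, edgeR) without untreated replicate 3.

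HLA-C, the other classical heavy chain, gave 203, 202 and 187 CPM in untreated WT and 266, 257 and 277 CPM in treated WT. The treated libraries all exceeded the untreated ones, with a log2 fold change at 0.43 (SE 0.134, adjusted p = 0.0109, edgeR), and the call was held in all 26 alternatives. In EV the values were 243, 243 and 249 CPM before and 306, 256 and 318 CPM after treatment. They did not overlap, but the log2 fold change of 0.26 (SE 0.133) missed the threshold (adjusted p = 0.112, edgeR). It passed in 6 alternatives, among them leaving out untreated MUT replicate 2 (0.26, adjusted p = 0.0195, edgeR) or replicate 3 (0.27, adjusted p = 0.0194, edgeR), whose spread enters the shared fit, and leaving out the 2 libraries high in mitochondrial counts (0.35, adjusted p = 0.002, edgeR). In MUT, HLA-C gave 213, 154 and 277 CPM untreated and 259, 235 and 271 CPM treated, overlapping, with a log2 change of 0.25 (SE 0.133, adjusted p = 0.122, edgeR). Without untreated MUT replicate 3 it was 0.44 (adjusted p = 0.00129, edgeR), and without the 2 libraries high in mitochondrial counts it was 0.056.

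HLA-E (chromosome 6, 30489467 to 30494206, plus strand), the NK receptor ligand, was called in no line. Its 18 libraries ran from 116 to 146 CPM, and both ends of that range were untreated MUT libraries. The cytarabine log2 fold change was 0.11 (95% interval -0.038 to 0.25) in EV, 0.045 (-0.099 to 0.19) in WT and -0.11 (-0.26 to 0.032) in MUT. In EV it passed with upper-quartile factors (0.18, adjusted p = 0.0435, edgeR). In MUT it passed with the authors' factors (-0.20) and without untreated replicate 1 (-0.19, adjusted p = 0.0314, edgeR).

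HLA-F was scarce and rose in every line. Its untreated EV libraries gave 6.13, 5.67 and 7.19 CPM (97 to 117 counts) and its treated ones 17.4, 12.0 and 15.7 CPM, a 2.38-fold rise (log2 1.25, SE 0.167, adjusted p = 4.47e-06, edgeR). In WT the values went from 4.56, 4.60 and 5.11 to 10.5, 8.16 and 12.0 CPM, equal to 1.10 on the log2 scale (SE 0.171, adjusted p = 2.64e-05, edgeR). All treated libraries were above all untreated ones in both lines. MUT cells went from 6.77, 6.29 and 8.62 to 11.2, 11.2 and 13.6 CPM, again without overlap (log2 0.73, SE 0.164, adjusted p = 0.000872, edgeR). The 3 calls were held in all 26 alternatives. The table's HLA-F interval (chromosome 6, 29722775 to 29738529, plus strand) overlaps the antisense gene HLA-F-AS1 on the other strand, and since the use of strand in counting is not given in the sources used here, reads of the pair may not be separated.

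The light chain B2M (chromosome 15, 44711487 to 44718878, plus strand) was the most abundant member. It gave 481, 465 and 457 CPM in untreated WT and 497, 468 and 502 CPM in treated WT, which overlapped. In EV the untreated libraries gave 451, 453 and 465 CPM and the treated ones 496, 382 and 517 CPM, replicate 2 again being the low one. The log2 fold changes were 0.027 in EV (95% interval -0.30 to 0.36), 0.064 in WT (-0.27 to 0.39) and 0.021 in MUT (-0.31 to 0.35), with no call. With the authors' factors the EV and MUT values turned to -0.047 and -0.070. Untreated MUT libraries gave 597, 339 and 734 CPM, against 573, 543 and 579.5 CPM in treated MUT. Without untreated MUT replicate 2 the MUT value was -0.28, and without the 2 libraries high in mitochondrial counts it was -0.24 (adjusted p = 0.0073, edgeR).

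TAP1 rose in all lines, whereas its partner TAP2 fell in EV and MUT. TAP1 (chromosome 6, 32845209 to 32853979, minus strand) gave 52.3, 50.7 and 57.5 CPM in untreated WT and 120.3, 121 and 129 CPM in treated WT, a 2.31-fold rise (log2 1.21, SE 0.0760, adjusted p = 3.91e-10, edgeR). EV libraries went from 61.1, 61.5 and 67.4 to 98.6, 113 and 105 CPM, a 1.67-fold rise (log2 0.74, SE 0.0756, adjusted p = 1.85e-07, edgeR). MUT libraries went from 60.8, 72.1 and 67.6 to 107, 103 and 100.3 CPM, a 1.55-fold rise (log2 0.63, SE 0.0752, adjusted p = 8.61e-07, edgeR). In every line all treated libraries exceeded all untreated ones, and the 3 calls were held in all 26 alternatives. The TAP1 interval overlaps PSMB9 and PSMB8-AS1 on the other strand, whose reads may not be separated from it.

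TAP2, the other chain of the transporter (chromosome 6, 32821833 to 32838781, minus strand), fell in EV and MUT. EV libraries gave 136, 134 and 132 CPM untreated and 90.4, 100.4 and 109 CPM treated, without overlap (log2 -0.42, SE 0.10, adjusted p = 0.00161, edgeR). MUT libraries gave 144, 112 and 156 CPM untreated and 100.4, 103 and 115 CPM treated (log2 -0.37, SE 0.0996, adjusted p = 0.00368, edgeR). Here untreated replicate 2, at 112 CPM, lay below treated replicate 3, at 115 CPM, and without it the log2 fold change was -0.54. Both calls were held in all 26 alternatives. In WT the values were 141, 133 and 123 CPM untreated and 121, 137 and 123 CPM treated, which overlapped (log2 -0.063, 95% interval -0.26 to 0.13). Per kb of length, TAP1 and TAP2 stood at 11.3 and 12.8 CPM per kb in untreated WT and at 26.1 and 12.2 CPM per kb in treated WT. The TAP2 interval overlaps AL669918.1 on the same strand, whose reads may not be separated from it.

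TAPBP, the peptide-loading chaperone tapasin (chromosome 6, 33299694 to 33314388, minus strand), fell in EV from 158, 146 and 148 to 116, 117 and 123 CPM. The groups did not overlap, and the log2 change, -0.34 (SE 0.0622, adjusted p = 0.000134, edgeR), was called in all 26 alternatives. In MUT it fell from 149, 131 and 139.5 to 127, 125 and 126 CPM (log2 -0.16, SE 0.0620, adjusted p = 0.0389, edgeR). That call was held in 19 of 26 alternatives. It was lost without untreated MUT replicate 1 (-0.11, adjusted p = 0.167), without treated MUT replicate 1, 2 or 3 (-0.16, -0.15 and -0.15), without treated WT replicate 3 (-0.16), with upper-quartile factors (-0.11) and with only the groups compared (-0.16, adjusted p = 0.167) in edgeR. WT libraries gave 137, 143 and 147 CPM untreated and 138, 128 and 131 CPM treated, which overlapped (log2 -0.11, 95% interval -0.23 to 0.014), and the change passed with the authors' factors (-0.17) and with only the groups compared (-0.10).

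NLRC5, the class I transactivator (chromosome 16, 56989485 to 57083532, plus strand), rose in every line. It went from 11.2, 10.5 and 10.6 to 13.7, 17.4 and 13.4 CPM in EV, a log2 change of 0.46 (SE 0.122, adjusted p = 0.00394, edgeR). WT libraries went from 9.71, 11.0 and 9.79 to 13.6, 13.8 and 14.9 CPM (log2 0.47, SE 0.121) and MUT libraries from 9.73, 10.8 and 9.02 to 16.3, 13.3 and 12.4 CPM (log2 0.51, SE 0.122). No treated library fell among the untreated ones of its line, and the calls were held in all 26 alternatives. The differences between lines were 0.048 for MUT minus EV (95% interval -0.29 to 0.39) and 0.034 for MUT minus WT (-0.30 to 0.37).

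**Figure D3:**
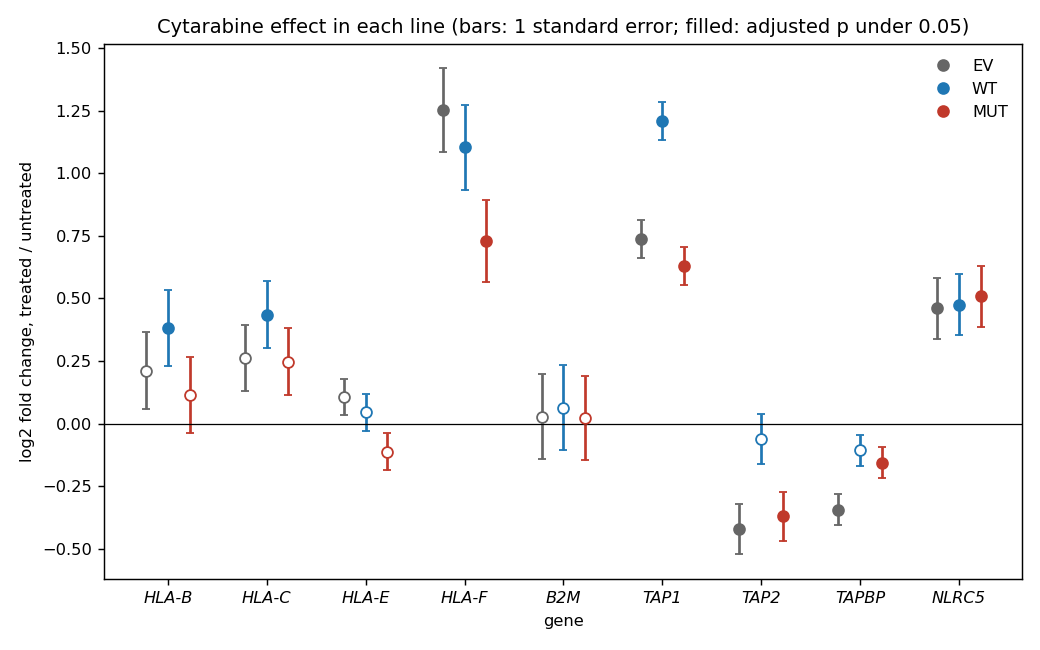
Log2 fold change after cytarabine (vertical axis) of the 9 genes in EV, WT and MUT, with bars of 1 standard error; filled points passed the edgeR test at an adjusted p under 0.05. TAP1 is highest in WT at 1.21, TAP2 and TAPBP lie below 0 in all lines, and B2M lies near 0.

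Whether the response differed between lines was tested with interaction contrasts, which share libraries with each other. For MUT against WT, TAP1 was the only member called, where 1.0% of all genes were. Its rise was smaller in MUT (log2 difference -0.58, SE 0.106, adjusted p = 0.0146, edgeR). The call was held in 25 of 26 alternatives and lost without treated MUT replicate 3 (-0.56, adjusted p = 0.0521, edgeR). For WT against EV no member was called in edgeR, with 0.285% of all genes called, while 3 members had an unadjusted p under 0.05 and DESeq2 called 1. The share of 0.285% is for an adjusted p in edgeR. Shares of all genes at an unadjusted p or in DESeq2 are not given for any contrast, so those member counts have no background. TAP1 came closest to a call in edgeR, with a difference of 0.47 (SE 0.107, adjusted p = 0.0801, edgeR). It passed in 5 alternatives, among them without untreated MUT replicate 2 (0.47, adjusted p = 0.0351, edgeR) and without replicate 3 (0.47, adjusted p = 0.0323, edgeR). Without the 2 libraries high in mitochondrial counts it was 0.52 (adjusted p = 0.0149, edgeR), the 1 member called where 0.708% of genes were. For MUT against EV no member was called (0.214% of all genes, 3 members at an unadjusted p under 0.05, 0 in DESeq2), and the TAP1 difference was -0.11 (95% interval -0.32 to 0.10).

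For the other members, calls made in 1 line and not in another came with no call of the difference between lines. The fall of TAP2 in MUT and not in WT gave a difference of -0.31 (95% interval -0.58 to -0.033, adjusted p = 0.297, edgeR), which passed without untreated MUT replicate 2 (-0.47, adjusted p = 0.0273, edgeR). WT minus EV for TAP2 was 0.36 (0.085 to 0.64, adjusted p = 0.4, edgeR). For TAPBP it was 0.24 (0.065 to 0.41, adjusted p = 0.368, edgeR). The rises of HLA-B and HLA-C in WT differed from those in MUT by -0.27 (-0.69 to 0.15) and -0.19 (-0.56 to 0.18), neither called. Without the 2 libraries high in mitochondrial counts, 3 members were called for MUT against WT, where 4.08% of genes were, namely TAP1 (-0.52), HLA-B (-0.49) and TAP2 (-0.43). For MUT against EV the same exclusion gave 2 calls, where 6.8% of genes were called, B2M (-0.39) and HLA-B (-0.45).

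Before treatment 1 member differed between WT and EV. TAP1 was lower in WT (log2 difference -0.24, SE 0.0767, adjusted p = 0.0459, edgeR), the only member called where 11.7% of genes were, and the WT libraries all lay below the EV ones. That call was held in 13 of 26 alternatives and was lost without any untreated EV library, any treated WT or treated MUT library, untreated WT replicate 1 or 2, or treated EV replicate 3, and with no low-count filter, with log2 differences of -0.27 to -0.20 and adjusted p up to 0.203 in edgeR. HLA-B, HLA-C and HLA-F also lay lower in all 3 WT libraries than in the EV ones (4 of 9 members did not overlap, against 40.3% of all genes). HLA-C and HLA-F differed by -0.31 and -0.41, without a call (adjusted p = 0.154 and 0.161, edgeR). HLA-C passed without untreated MUT replicate 2 or 3, at -0.32 in both fits, with only the groups compared (-0.30) and without the 2 libraries high in mitochondrial counts (-0.31, adjusted p = 0.00914, edgeR), where 15.2% of genes were called. Untreated MUT exceeded untreated WT in HLA-F by 0.60 (SE 0.176, adjusted p = 0.0194, edgeR) and in TAP1 by 0.32 (SE 0.0765, adjusted p = 0.00547, edgeR), 2 members where 21.2% of genes were called. With only the groups compared both calls were lost (HLA-F 0.59, adjusted p = 0.0788, and TAP1 0.31, adjusted p = 0.0884, edgeR). Without untreated MUT replicate 2 the members called were 5, with B2M (0.55, adjusted p = 0.000616, edgeR), HLA-B (0.47) and HLA-C (0.35) added. The share of all genes called in that fit is not given. The HLA-F call was also lost without untreated MUT replicate 3 (0.49) or untreated WT replicate 1 (0.57) or 2 (0.62). Between untreated MUT and EV no member was called, against 19.9% of all genes, with 0 members at an unadjusted p under 0.05 and 0 called in DESeq2.

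After treatment 3 members differed between WT and EV, where 16.5% of genes were called. HLA-F was lower in WT (log2 difference -0.56, SE 0.158, adjusted p = 0.0195, edgeR), a call lost without treated EV replicate 1 or 3 or treated WT replicate 1 or 2 (-0.42 to -0.58). TAP2 was higher in WT by 0.34 (SE 0.0998, adjusted p = 0.0227, edgeR), a call lost without treated EV replicate 1 (0.28) or 2 (0.35) or treated WT replicate 2 (0.29). TAP1, lower in WT before treatment, was now higher than in EV by 0.23 (SE 0.0739, adjusted p = 0.0403, edgeR). That call was held in 13 of 26 alternatives, and leaving out single libraries gave 0.18 to 0.28, with calls lost for treated EV replicates 1 and 3, untreated EV replicates 1 and 2, treated MUT replicates 2 and 3, every treated WT library and untreated WT replicates 1 and 2. It was lost as well with upper-quartile (0.21) and the authors' factors (0.22). TAP1 was also the only member that differed between treated MUT and WT, where it was lower in MUT (log2 difference -0.26, SE 0.0738, adjusted p = 0.0176, edgeR), with 19.8% of genes called. The call was lost without treated MUT replicate 2 (-0.25) or 3 (-0.24) or treated WT replicate 3 (-0.23). TAP2, lower in MUT by a log2 difference of -0.26 (adjusted p = 0.0776, edgeR), passed in 5 alternatives. Treated MUT and EV differed in no member, where 14.0% of genes were called in edgeR. Of the members, 2 had an unadjusted p under 0.05 and DESeq2 called 0, with no share of all genes given for either.

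The untreated MUT libraries were spread widely in 3 of the members. In replicates 1, 2 and 3, B2M gave 597, 339 and 734 CPM, HLA-B 317, 207 and 399.6 CPM and HLA-C 213, 154 and 277 CPM. Replicate 3 was highest and replicate 2 lowest in each. DNMT3A had the opposite order, at 499.7, 615 and 254 CPM. TAP2 followed the order of B2M, at 144, 112 and 156 CPM, and so did HLA-F, at 6.77, 6.29 and 8.62 CPM. By contrast, HLA-E, TAP1 and NLRC5 were highest in replicate 2, at 146, 72.1 and 10.8 CPM. TAPBP was lowest in replicate 2 and highest in replicate 1. In the treated EV group replicate 2 was low in B2M (382 CPM against 496 and 517), in HLA-B, in HLA-C and in HLA-F (12.0 CPM against 17.4 and 15.7). That library was highest in HLA-E, TAP1 and NLRC5 and lay between the others in TAP2 and TAPBP. Its DNMT3A was 49.6 CPM against 47.1 and 45.5. Both low libraries are those highest in mitochondrial counts, and the part of mitochondrial content in these values was not tested. Without the 2 libraries, untreated MUT exceeded untreated EV in B2M by 0.55 (adjusted p = 2.71e-05, edgeR) and in HLA-B by 0.32 (adjusted p = 0.00444, edgeR). These are 2 members where 24.5% of genes were called. Without untreated MUT replicate 3 instead, HLA-B turned to -0.11. Against untreated WT the same exclusion of 2 libraries gave 5 calls, where 25.0% of genes were called, with B2M at 0.51, HLA-B at 0.44 and HLA-C at 0.31 beside HLA-F and TAP1. Between treated MUT and treated EV it gave calls of HLA-C (-0.29) and HLA-F (-0.46, adjusted p = 0.0406, edgeR), where 16.2% were called. Between treated MUT and treated WT it added B2M (0.21) and TAP2 (-0.26) to TAP1, where 25.2% were called. Treated WT and EV still differed in HLA-F, TAP1 and TAP2, where 19.2% of genes were called.

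**Figure D4:**
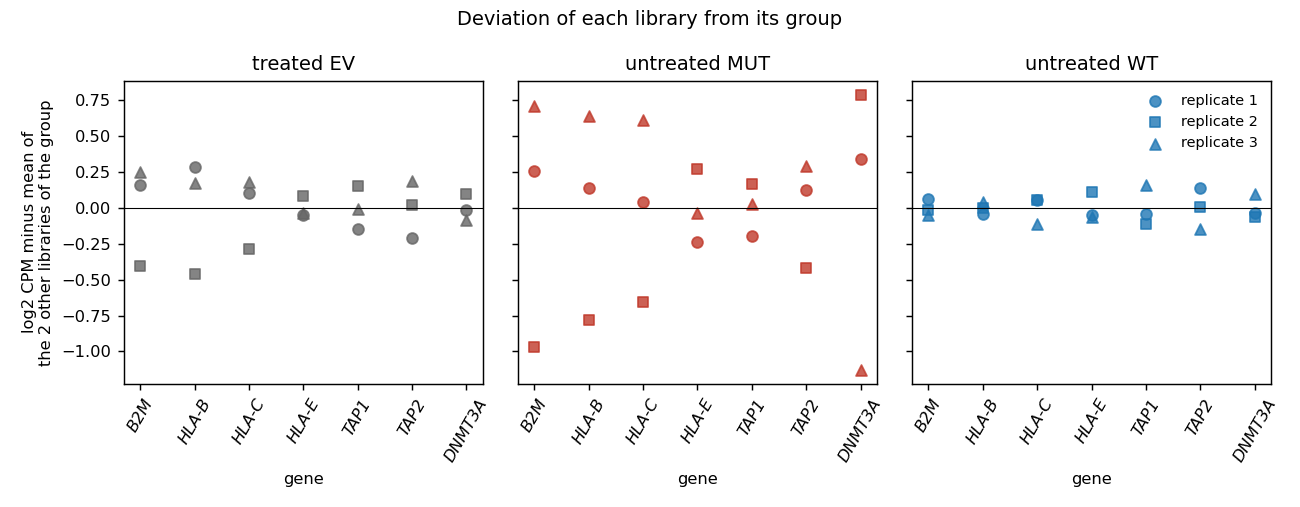
Log2 CPM of each library minus the mean of the 2 other libraries of its group (vertical axis) for 6 members and DNMT3A in treated EV, untreated MUT and untreated WT; circles, squares and triangles are replicates 1, 2 and 3. In untreated MUT, B2M runs from -0.97 (replicate 2) to 0.71 (replicate 3) and DNMT3A from -1.13 (replicate 3) to 0.79 (replicate 2), while in untreated WT all values stay near 0.

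Other genes of the pathway were taken from lists written from general knowledge. No list was tested as a set, and the counts below stand beside the shares of all genes that were higher (26.1% in EV, 26.3% in WT, 30.4% in MUT) or lower (22.9%, 22.7% and 25.9%) after cytarabine. Of a list of immunoproteasome subunits and PA28 proteasome activators, PSMB9, the inducible subunit whose promoter abuts that of TAP1, rose in all lines. It went from 11.8 ± 1.27 to 32.0 ± 0.139 CPM (SD, n = 3) in EV, from 6.88 ± 0.376 to 21.7 ± 2.14 in WT and from 16.2 ± 3.46 to 31.9 ± 4.30 in MUT, log2 fold changes of 1.44, 1.66 and 0.98. PSMB8 rose in EV (0.48) and WT (0.61) and gave 0.11 in MUT (adjusted p = 0.232, edgeR). The third inducible subunit, PSMB10, fell in all 3 lines (-0.52, -0.49 and -0.87), as did PSME3 (-0.65, -0.41 and -0.61). PSME2 fell in MUT (-0.56) and PSME1 was called in no line. In this list of 6 genes EV and WT each had 2 rises and 2 falls, and MUT had 1 rise and 3 falls, so 4 of 6 were called in each line, beside 49.1%, 49.0% and 56.3% of all genes. The constitutive catalytic subunits PSMB5, PSMB6 and PSMB7 fell in all 3 lines, PSMB6 by log2 fold changes of -0.65 (EV), -0.60 (WT) and -1.11 (MUT).

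Peptide trimming and loading genes were called in every line. ERAP1, the trimming aminopeptidase, rose in EV (0.28), WT (0.33) and MUT (0.59), and calreticulin (CALR) rose in EV (0.22) and WT (0.17). Calnexin (CANX) fell in MUT (-0.20). ERAP2, TAPBPL and PDIA3 were called in no line. Of the 6 genes EV and WT each had 2 rises, and MUT had 1 rise and 1 fall. Of all genes 49.1% (EV), 49.0% (WT) and 56.3% (MUT) were called.

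Of 14 interferon signalling genes tested, EV had 2 rises and 2 falls, WT had 3 rises, and MUT had 2 rises and 1 fall, shares below the background of called genes. STAT2, a signal transducer of type I interferon, was the exception in size, going from 36.1 ± 0.764 to 70.4 ± 4.84 CPM in EV (log2 0.97, SE 0.0945, adjusted p = 1.02e-07, edgeR) with 0.84 in WT and 0.97 in MUT. The receptor chain IFNAR2 rose too (0.46, 0.68 and 0.52). IRF1, a transcription factor of interferon responses, fell in EV (-0.31) and MUT (-0.23). IRF2 fell in EV (-0.36), and IRF9, JAK2 and SOCS1 were called in no line. None of the 7 interferon genes of the list was found by its symbol among the 25296 genes of the deposited counts, so they were not analysed.

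Of 8 genes for proteins that bind the SXY module 4 fell in each line, none rose in EV and 1 rose in WT and in MUT, so 4 or 5 of 8 were called, near the share of all genes called. NFYA, a subunit of the Y box factor, gave log2 fold changes of -0.84, -0.72 and -0.73 in the EV, WT and MUT lines, and it, NFYC and ATF1 fell in all lines. RFX5, the X box binding protein that NLRC5 works with, gave 0.14, 0.054 and 0.12, with no call. Of 6 NF-kB genes 5 fell in EV and MUT and 4 in WT, beside 22.9%, 25.9% and 22.7% of all genes lower. REL rose in MUT (0.71) and gave 0.37 in EV and 0.19 in WT, with no call. The inhibitor NFKBIA (-1.10, -1.12 and -1.27), RELB (-1.11, -0.88 and -1.35) and NFKB1 (-1.05, -0.81 and -0.99) had the largest mean changes of the 6.

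**Figure D5:**
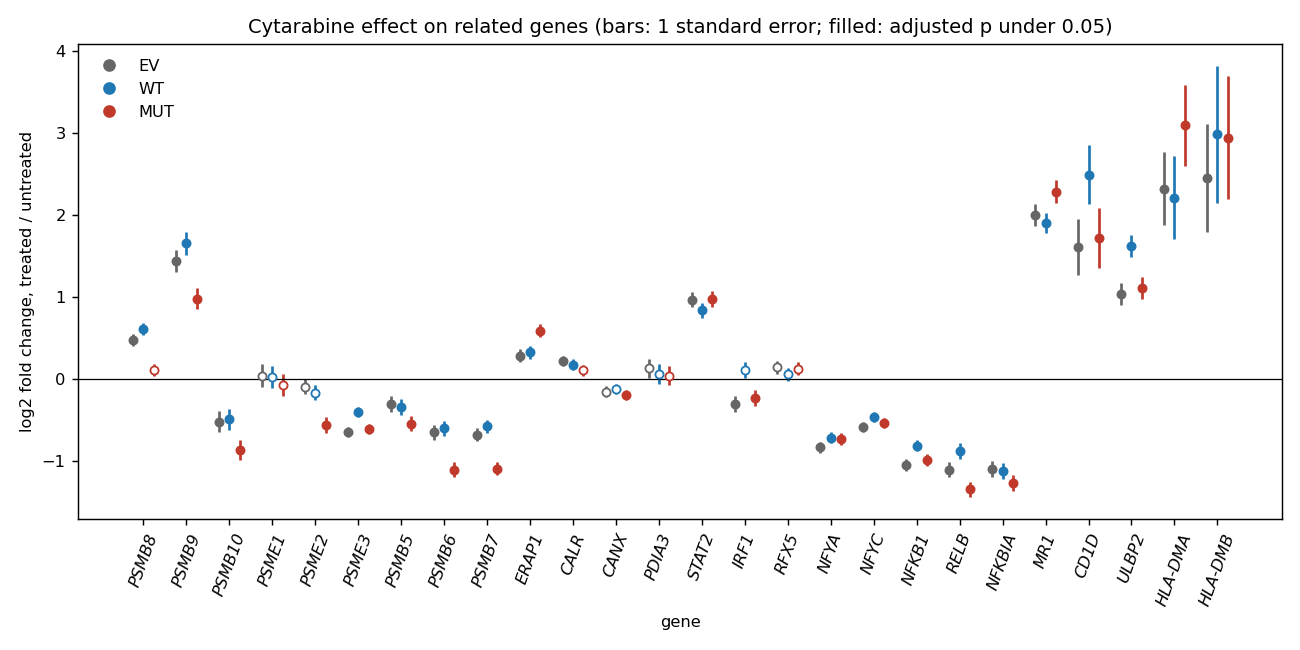
Log2 fold change after cytarabine (vertical axis) of 26 related genes in EV, WT and MUT, with bars of 1 standard error; filled points passed the edgeR test at an adjusted p under 0.05. PSMB9, STAT2 and the class I-like and class II genes at the right lie above 0, and PSMB5 to PSMB7, NFYA, NFYC, NFKB1, RELB and NFKBIA lie below it in every line.

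The members did not move as a block across the 18 libraries. Pearson's r of log2 CPM between pairs of members ran from -0.78 (HLA-F with TAPBP) to 0.87 (TAP1 with NLRC5), over libraries that share the treatment split. HLA-B and HLA-C were alike (0.86), as were HLA-F and TAP1 (0.84) and HLA-B and B2M (0.79). Among the genes whose profile was most like the mean standardised profile of the 9 members over the 18 libraries were C12orf75 (r = 0.93), CCR10 (0.89), HACD1 (0.88) and ERLEC1 (0.88). These values describe the libraries and carry no test.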

How the data were processed

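The 18 libraries were made from total RNA of U2OS cells with a NEBNext Ultra kit, per the labels. The deposited gene table holds estimated counts for 25296 genes (70.4% of values whole). The authors' second table holds the normalized signal of 19591 genes. After 1 is subtracted, that signal equals the counts times 1 factor per library. The relative deviation was at most 8.15e-06 for counts of at least 100. The submitters' processing notes name hg38, CASAVA and STAR 2.6.1d; the counter, the annotation and the use of strand are not given in the sources used here. Estimated counts were rounded, genes filtered with filterByExpr (18226 kept), scaled by TMM and fitted with edgeR 4.0.16 (R 4.3.3) by quasi-likelihood, 1 coefficient per group, 12 contrasts, Benjamini-Hochberg adjustment over all tested genes and a threshold of 0.05. CPM use TMM library sizes, lengths are GENCODE v44 exon unions, and intervals are 1.96 SE. Alternatives were DESeq2 1.42.0, upper-quartile and the authors' factors, no filter, a mean of at least 50 counts, only the groups compared, a replicate block, leaving out each library and, added after seeing the data, leaving out the 2 libraries highest in mitochondrial counts. The labels call the replicates biological triplicates at plating and name no separate days, so p-values measure the spread between these platings. On simulated data 74% of 1.5-fold and 94% of 2-fold changes were recovered for the EV effect, and 38% and 82% for the WT minus EV difference of effects. The simulation gave all groups the same spread and changed only 200 genes, in treated EV. Those shares do not measure recovery in these data, where spread differed by group and many more genes were called. The members and gene lists were chosen with earlier results of these data known. Named genes were all members, all immunoproteasome, PA28, trimming and loading genes, a short list of interferon and class I-like genes, and of each other list at most the 3 with the largest mean absolute change; SPARC, RUNX2, BGLAP, PTPRC, MS4A1 and CD14 are named as defining lineage markers and the likeness genes by rank. Some genes that this rule names are not reported here.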

Additional observations from a re-analysis of the deposited data

Results flagged for a closer look

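Of the 9 members and 70 tested genes of the related lists, 3 differed in their cytarabine response between the MUT and WT lines, where 1.0% of all genes did, by the test of the difference itself (edgeR quasi-likelihood, Benjamini-Hochberg adjustment over all tested genes, 3 libraries in each of 4 groups). The TAP1 difference, MUT minus WT, was -0.58 on the log2 scale (adjusted p = 0.0146, edgeR). That of PSMB8, an inducible proteasome subunit, was -0.50 (adjusted p = 0.0272, edgeR), with log2 fold changes of 0.61 in WT and 0.11 in MUT (not called). PSMB7, a constitutive proteasome subunit, had a difference of -0.51 (adjusted p = 0.0289, edgeR), with log2 fold changes of -0.58 in WT and -1.09 in MUT. Before treatment PSMB8 stood at 49.4 ± 2.09 CPM (SD, n = 3) in WT and 67.2 ± 6.82 CPM in MUT, and after it at 75.5 ± 5.48 and 72.2 ± 1.70 CPM. Among the cell type markers, which are not in that count, COL1A1 had a difference of 0.62 (adjusted p = 0.0446, edgeR).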

How the results depend on the processing

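The cytarabine calls of TAP1, HLA-F and NLRC5 in every line, of TAP2 in EV and MUT, of TAPBP in EV and of HLA-C in WT were held in all 26 alternatives, 1 of them chosen after seeing the data. Without the 2 libraries highest in mitochondrial counts the members called were 7 in EV, 5 in WT and 6 in MUT for cytarabine, 2, 3 and 1 for the differences of effect (MUT minus EV, MUT minus WT and WT minus EV), 2, 5 and 2 for the same untreated pairs and 2, 3 and 3 for the treated ones. With only the groups compared, counts were 0 for untreated MUT minus WT, 3 for untreated WT minus EV, 3 for treated MUT minus WT and 1 for the WT minus EV difference of effect. DESeq2 gave 2 for treated MUT minus WT and 1 for the WT minus EV difference of effect, and no low-count filter gave 0 for untreated WT minus EV. Leaving out 1 library at a time gave counts of 5 to 6 in EV, 4 to 5 in WT and 4 to 7 in MUT, 0 to 2 and 0 to 1 for the differences of effect MUT minus WT and WT minus EV, 0 to 2, 1 to 5 and 0 to 2 for untreated MUT minus EV, MUT minus WT and WT minus EV, and 0 to 1, 0 to 2 and 0 to 3 for the treated pairs. Apart from the fit without the 2 libraries, shares of all genes called in these alternatives are not given. Whether all genes moved with the members in those fits cannot be told from these counts. The cause of the changes in the counts was not tested.

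Some values without a call changed sign. With the authors' factors B2M was -0.047 in EV and -0.070 in MUT, and HLA-E was -0.016 in WT. In MUT, B2M was -0.020 in DESeq2 and -0.24 without the 2 libraries, where HLA-B was -0.11. Leave-one-out ranges were -0.056 to 0.15 (B2M, EV), -0.28 to 0.24 (B2M, MUT), -0.15 to 0.31 (HLA-B, MUT), -0.36 to 0.099 and -0.31 to 0.21 (HLA-B and B2M, effect MUT minus EV), -0.42 to 0.0079 (HLA-C, effect MUT minus WT), -0.11 to 0.35 (HLA-B, untreated MUT minus EV) and -0.074 to 0.35 (HLA-C, untreated MUT minus WT).

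The replicate block changed no count of members and gave 0.041 for the B2M effect MUT minus EV. The replicate numbers were not taken as pairing the samples, since 0 of 15 pairs of groups had all correlations over 0.1 (range -0.18 to 0.35). This rule cannot exclude a pairing of some libraries, and replicate 3 of untreated and treated MUT correlated at 0.33. HLA-F had the fewest counts of the members, 87 to 367 a library, and NLRC5 had 158 to 370.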

Other observations

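Of 13 tested class I-like genes and stress ligands, 7 rose with cytarabine in EV, 8 in WT and 8 in MUT, beside 26.1%, 26.3% and 30.4% of all genes, and 1 fell in MUT. No list was tested as a set. MR1, which presents microbial vitamin metabolites to MAIT cells, went from 4.66 ± 0.291 to 18.6 ± 1.58 CPM (SD, n = 3) in EV, from 5.49 ± 0.248 to 20.5 ± 0.863 in WT and from 2.82 ± 0.428 to 13.8 ± 2.25 in MUT, log2 fold changes of 2.00, 1.90 and 2.28. ULBP2, a ligand of the NK receptor NKG2D, rose from 10.1 ± 1.08 to 31.0 ± 0.816 CPM in WT (log2 1.62), and its log2 fold changes were 1.03 in EV and 1.11 in MUT. CD1D, which presents lipids, rose in all lines as well (1.61, 2.49 and 1.72) from 0.613 ± 0.183 CPM in untreated EV. MICA, another NKG2D ligand, gave -0.083, 0.14 and -0.020, and HFE gave 0.60, 0.041 and 0.39, neither called. ULBP3 fell in MUT (-0.91).

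Of 6 class II genes tested, 4 rose in EV, 3 in WT and 4 in MUT, beside the same shares of all genes. HLA-DPA1 and HLA-DPB1 each reached 3.42 CPM, the highest level of the 6 in any library. HLA-DMB, part of the class II peptide editor, went from 0.238 ± 0.0589 to 1.31 ± 0.517 CPM in EV and HLA-DMA from 0.353 ± 0.207 to 1.80 ± 0.454. The class II transactivator CIITA was called in no line (0.13, -0.42 and 0.48), and CD74 did not pass the filter, with at most 0.862 CPM in any library. Of 8 genes tied to class I surface turnover, EV and WT each had 2 rises and 3 falls, and MUT had 3 of each. SUSD6, which takes part in class I degradation, rose in EV, WT and MUT (log2 0.49, 1.00 and 0.94), and the ubiquitin ligase WWP2 fell with log2 fold changes of -0.46, -0.54 and -0.46. The summed level of the 5 endothelial markers was higher after treatment too, going from between 3.21 and 3.91 CPM in untreated EV to between 7.37 and 7.53 CPM in treated EV, and its part in these values was not tested.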
